A study of Schmidtea mediterranea with 36 samples.

Results

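*sfrp-1*, *wnt2-1*, *ndk*, *ndk-3* and *ndk-4* are genes of the planarian head region, and their transcripts were followed in 36 RNA libraries of the flatworm *Schmidtea mediterranea*. Each member is the transcript whose ID carries that gene's full name between separators (SmedASXL_007755, SmedASXL_004272, SmedASXL_009279, SmedASXL_015265 and SmedASXL_014712, in the order above). They make up 5 of the 71232 transcripts in the tables and 5 of the 271 whose ID carries a gene name. All 5 passed the filter on low values (10 or more normalized counts in 3 of the 6 libraries of a time) at every time. All animals belonged to the asexual strain CIW4 and were fed double-stranded RNA 9 times, against *alx-3*, a homeobox transcription factor gene, in *alx-3(RNAi)* animals and against *GFP*, which planarians lack, in *control(RNAi)* animals. They were cut behind the pharynx 4 days after the last feeding. RNA was taken from tail fragments at 0.5 h post-amputation (HPA), at 6, 24, 48 or 72 HPA, and from intact animals, with 3 biological replicates in each of the 12 groups. A tail fragment was sequenced whole, so fewer cells expressing a gene and less RNA per cell cannot be told apart in these values.

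Planarians keep their body plan through genes that are expressed regionally, mostly in body wall muscle, and a tail fragment has to set up a head pattern anew. A head forms where Wnt/β-catenin signaling is low. *sfrp-1* encodes a secreted Frizzled-related protein, a kind of protein that binds Wnt ligands outside the cell, and *wnt2-1* encodes a Wnt ligand expressed in the head region. The *ndk* genes are named after *nou-darake*, an FGF receptor-like gene of the head without a kinase domain, whose loss lets brain tissue form outside the head.

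The tissue labels were checked first. CPM is here the normalized count divided by the sum of the library and multiplied by 1000000. The eye transcription factor gene *ovo* was at 0.0381 to 0.324 CPM in 0.5 HPA control tails and at 0.779 to 1.12 in intact controls. These are low values, and *ovo* did not pass the filter at 0.5 HPA. For *COE*, the other head and brain marker named, the groups lay closer. It was at 12.2 to 13.2 CPM in 0.5 HPA control tails and 14.7 to 17.5 in intact controls. In 72 HPA control tails it was at 20.1 to 20.5. The posterior gene *wnt11-1* was at 36.1 to 50.7 CPM in 0.5 HPA control tails and at 11.2 to 12.6 in intact controls. The library sums of normalized counts ran from 50851868 to 70937400 (median 58475718). They were taken after scaling for library size and do not measure depth, and the reads per library were not recovered. The targeted gene was checked in the same way. *alx-3* was lower in all 3 *alx-3(RNAi)* libraries than in all 3 controls at each time, with log2 fold changes of −1.30 at 0.5 HPA, −1.35 at 6 HPA, −2.07 at 24 HPA, −1.84 at 48 HPA, −1.80 at 72 HPA and −2.08 in intact animals (highest adjusted p = 0.000148, limma). Among replicates, the intact *alx-3(RNAi)* replicate 2 stood apart from its group, with a mean chi-square per transcript of 72.0 and 76.1 against the other two, beside 5.23 between those. Control replicates 1 and 3 of 48 HPA were the least alike pair of any group (95.5).

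In controls, 4 of the 5 genes were higher in each intact library than in each of the 15 tail libraries, on the CPM scale, where 8.06% of 27959 transcripts were. The deposited counts were scaled separately at each time, so levels of different times are described and not tested. *ndk*, the founding member of its family, had the widest gap of the 5 at 24 HPA. It was at 49.3, 52.3 and 57.5 CPM in the intact control libraries and at 4.56, 4.93 and 6.94 at 24 HPA, 9.68-fold lower by the means. *sfrp-1* was at 12.1, 13.5 and 13.6 CPM in intact controls and at 1.84, 2.49 and 2.43 at 24 HPA, 5.81-fold lower. For *ndk-4* the intact libraries held 17.7, 18.9 and 19.3 CPM and the 24 HPA libraries 2.74, 3.23 and 3.63, a 5.82-fold gap. All the intact values of these 3 genes lay far outside the range of the 24 HPA tails. Against the fresh tails of 0.5 HPA the gaps of *ndk* (3.74-fold), *sfrp-1* (3.04-fold) and *ndk-4* (3.39-fold) were smaller. That of *wnt2-1* was 2.85-fold, beside 4.31-fold at 24 HPA. For *ndk-3* it was larger, 2.95-fold beside 2.56-fold at 24 HPA.

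*ndk-3* kept more of its intact level in the tail than the other 4 genes did at 24 HPA. Its intact control libraries were at 33.1, 34.8 and 35.6 CPM, and its 24 HPA libraries at 12.8, 10.9 and 16.7, which is 39.1% of the intact mean. The corresponding shares were 10.3% for *ndk*, 17.2% for *sfrp-1*, 17.2% for *ndk-4* and 23.2% for *wnt2-1*. These shares were not tested against each other. *wnt2-1*, at 13.9, 16.5 and 18.4 CPM in intact controls, was the gene whose intact libraries overlapped tails, since the highest 72 HPA control library reached 14.3.

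**Figure D1:**
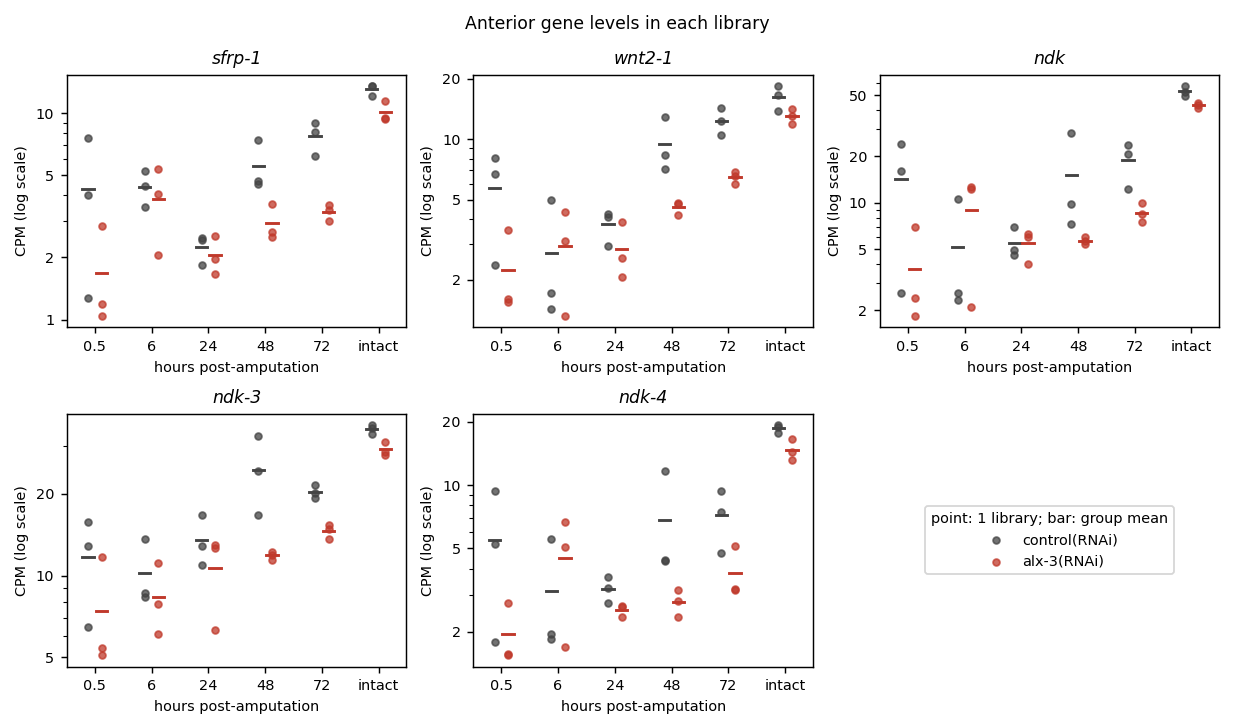
Each panel plots 1 anterior gene in all 36 libraries. The vertical axis is the level in CPM on a log scale, the horizontal axis gives the hours post-amputation and intact animals, evenly spaced, points are libraries and bars are group means. Intact controls of *ndk* sit at 49.3 to 57.5, against 4.56 to 6.94 at 24 HPA, and the 3 *alx-3(RNAi)* libraries at 72 HPA lie below the 3 controls for every gene except *ndk-4*.

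The tails had anterior transcripts from the start, at uneven levels. At 0.5 HPA, *ndk* was at 2.59, 16 and 24 CPM in control replicates 1 to 3, a 9.24-fold range among replicates. *sfrp-1* spanned a 5.96-fold range in the same libraries (1.28, 4.01 and 7.61 CPM), *ndk-4* a 5.25-fold range, *wnt2-1* a 3.42-fold range and *ndk-3* a 2.43-fold range. Control replicate 1 was the lowest and control replicate 3 the highest for all 5 genes. By 24 HPA the ranges had narrowed to between 1.32-fold and 1.52-fold.

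All 5 genes went up in control tails between 24 and 72 HPA. Each was higher in the 3 control libraries of 72 HPA than in the 3 of 24 HPA, as were 27.9% of all transcripts. *sfrp-1* went from 2.25 ± 0.357 CPM (mean ± SD, n = 3) at 24 HPA to 5.57 ± 1.64 at 48 HPA and 7.77 ± 1.45 at 72 HPA, a 3.45-fold gain by 72 HPA. *wnt2-1* went from 3.77 ± 0.722 to 9.44 ± 2.99 and 12.4 ± 1.88, a 3.28-fold gain. *ndk* went from 5.48 ± 1.28 to 15.1 ± 11.5 and 18.9 ± 5.98, a 3.44-fold gain. In 6 HPA controls *sfrp-1* was at 4.40 ± 0.880 CPM, 1.95-fold its 24 HPA mean, so its gain from 6 HPA was smaller. The other genes were at 0.723-fold (*wnt2-1*) to 0.974-fold (*ndk-4*) of their 24 HPA means at 6 HPA. The median log2 ratio of 72 to 24 HPA was 1.71 for the 5 genes and 0.12 for all 27959 transcripts. Against the uneven 0.5 HPA tails the ratio was smaller, with a median of 0.79 (log2) and 0.41 for *ndk* and 0.39 for *ndk-4*, which turned to −0.082 and −0.028 without 0.5 HPA control replicate 1.

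By the means, the gain from 24 HPA was smaller for *ndk-3* and *ndk-4*, an order that does not hold from 6 HPA. *ndk-4* stood at 3.20 ± 0.444 CPM at 24 HPA and at 7.19 ± 2.32 at 72 HPA, 2.25-fold higher. *ndk-3* went from 13.5 ± 2.91 to 24.5 ± 7.92 at 48 HPA and 20.2 ± 1.13 at 72 HPA, 1.502-fold higher than at 24 HPA. Its 48 HPA libraries, at 16.7, 24.3 and 32.5 CPM, enclosed those of 72 HPA at 19.2, 20.1 and 21.5, so the order of these neighbouring times was within the spread. At 48 HPA the 3 controls were already above the 3 controls of 24 HPA for all 5 genes, as were 12.3% of all transcripts.

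None of the 5 mean levels had reached that of intact controls by 72 HPA. *wnt2-1* was at 76.0% of the intact mean, *sfrp-1* at 59.4%, *ndk-3* at 58.7%, *ndk-4* at 38.6% and *ndk* at 35.6%. In *alx-3(RNAi)* tails the same genes were at 49.9%, 33.0%, 50.1%, 26.05% and 20.03% of the intact mean of their own group. The 72 HPA libraries of *alx-3(RNAi)* tails also lay above those of 24 HPA for all 5 genes (11.6% of all transcripts), with gains of 1.37-fold for *ndk-3* to 2.28-fold for *wnt2-1*.

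**Figure D2:**
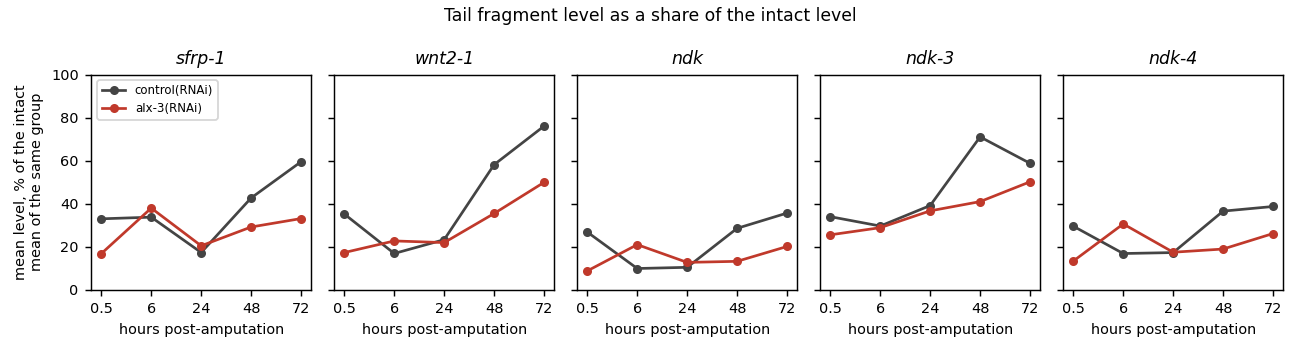
Each panel plots the mean tail level of 1 gene as a percentage of the mean of the intact libraries of the same RNAi group, against hours post-amputation, with times evenly spaced and n = 3 libraries behind each point. By 72 HPA the control line ends at 76.0% for *wnt2-1* and 35.6% for *ndk*, and the *alx-3(RNAi)* line ends lower in each panel.

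The effect of the knockdown was tested within each time, on log2(normalized count + 1) with limma. Calls were made below 0.05 after Benjamini-Hochberg adjustment over every tested transcript. At 72 HPA 4 of the 5 genes fell in *alx-3(RNAi)* tails and none rose, where 2.62% of 33399 transcripts were called lower. Their median log2 fold change was −0.72, against 0.01 for all transcripts. The 3 *alx-3(RNAi)* libraries were below the 3 controls for 4 genes, *sfrp-1*, *wnt2-1*, *ndk* and *ndk-3*, as for 11.3% of tested transcripts. The study asked whether *alx-3* is needed to rebuild anterior pattern in tails.

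*sfrp-1*, the Frizzled-related gene, showed the largest fold change of the 5 at 72 HPA. Its normalized counts were 341, 462 and 491 in control replicates 1 to 3, against 233, 182 and 229 in *alx-3(RNAi)* replicates 1 to 3. The groups were well apart (log2 fold change −0.99, SE 0.143, adjusted p = 0.000343). *wnt2-1*, the Wnt ligand gene, had 581, 697 and 779 normalized counts in controls, against 443, 362 and 442 in *alx-3(RNAi)* tails. Its groups did not overlap either (log2 fold change −0.72, SE 0.117, adjusted p = 0.000937).

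The *ndk* genes had unequal values at 72 HPA, and the differences between them were not tested. *ndk* had 673, 1172 and 1296 normalized counts in controls, against 648, 452 and 565 in *alx-3(RNAi)* tails, with control replicate 1 only just above the highest *alx-3(RNAi)* library (log2 fold change −0.87, SE 0.184, adjusted p = 0.00523). *ndk-4* had 262, 423 and 511 in controls, against 332, 193 and 213 in *alx-3(RNAi)* tails, so control replicate 1 lay inside the knockdown range. Its call was close to the threshold (log2 fold change −0.68, SE 0.213, adjusted p = 0.0450), and it was lost without control replicate 2 or 3 or without *alx-3(RNAi)* replicate 2 or 3 (adjusted p = 0.103 to 0.233). *ndk-3* was not called, at 1061, 1140 and 1170 in controls, against 959, 822 and 1027 in *alx-3(RNAi)* tails (log2 fold change −0.27, SE 0.0903, adjusted p = 0.0618). It was called lower once all libraries were given equal totals (−0.48, adjusted p = 0.00117).

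Summed counts differed between the groups. *alx-3(RNAi)* libraries had larger sums than controls at 72 HPA, 60320969 to 67240175 against 54541745 to 56826645. With equal totals the median of all transcripts moved to −0.20 at 72 HPA, −0.15 at 48 HPA and −0.12 at 6 HPA. All transcripts called at 72 HPA were then 1072 higher and 3998 lower, instead of 3495 higher and 876 lower. The same rescaling turned 411 higher and 264 lower into 315 and 1226 at 0.5 HPA, 565 and 204 into 185 and 411 at 6 HPA, 1316 and 925 into 978 and 2126 at 24 HPA, 765 and 358 into 604 and 1886 at 48 HPA, and 125 and 163 into 131 and 338 in intact animals. All 5 anterior genes were lower under both scalings at 72 HPA. With all 36 libraries in 1 fit, which gives each gene a single spread for all times, none of the 5 was called at 72 HPA (adjusted p = 0.0991 for *sfrp-1*), with the fold changes as before. The share of each library in the ribosomal RNA transcripts named in the IDs was 13.2% to 14.8% in *alx-3(RNAi)* tails and 12.1% to 12.8% in controls at 72 HPA, and 14.1% to 14.6% and 11.97% to 12.3% at 48 HPA. It was higher in each *alx-3(RNAi)* library at 0.5, 6 and 24 HPA too, and its part in the fall of the anterior genes was not tested.

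At 48 HPA 2 of the 5 genes fell in *alx-3(RNAi)* tails, where 1.11% of 32366 transcripts were called lower. *wnt2-1* had 389.8, 504 and 831 normalized counts in controls, against 297, 306 and 316 in *alx-3(RNAi)* tails (log2 fold change −0.83, SE 0.201, adjusted p = 0.0300). *ndk-3* had 911, 1463 and 2109 in controls, against 848, 739 and 800.3 in *alx-3(RNAi)* tails (−0.83, SE 0.204, adjusted p = 0.0337). In both genes the control libraries were spread widely and the *alx-3(RNAi)* libraries closely, with no overlap.

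The other 3 genes had log2 fold changes of a similar size at 48 HPA and were not called. *ndk* had 397, 590.0 and 1833 normalized counts in controls, against 380.3, 363 and 390.2 in *alx-3(RNAi)* tails (−0.997, SE 0.350, adjusted p = 0.146). The values of *ndk-4* gave −0.98 (adjusted p = 0.102) and those of *sfrp-1* −0.74 (adjusted p = 0.0881). All 3 *alx-3(RNAi)* libraries were below all 3 controls for 4 of the 5 genes, the exception being *sfrp-1*, and for 8.98% of tested transcripts. Control replicate 3 was the highest library for all 5 genes. Without it the log2 fold changes shrank to −0.36 for *ndk*, −0.45 for *ndk-4*, −0.45 for *sfrp-1*, −0.53 for *wnt2-1* and −0.54 for *ndk-3*, with *wnt2-1* and *ndk-3* still called (adjusted p = 0.0240 and 0.0311), and without control replicate 1 all 5 were called. Of all tested transcripts, 494 of 31271 were called lower without control replicate 3 and 634 of 30867 without control replicate 1. Leaving out any 1 of the 3 *alx-3(RNAi)* replicates left none of the 5 genes called, at −0.78 to −0.88 for *wnt2-1* and *ndk-3* (adjusted p = 0.0729 to 0.142).

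**Figure D3:**
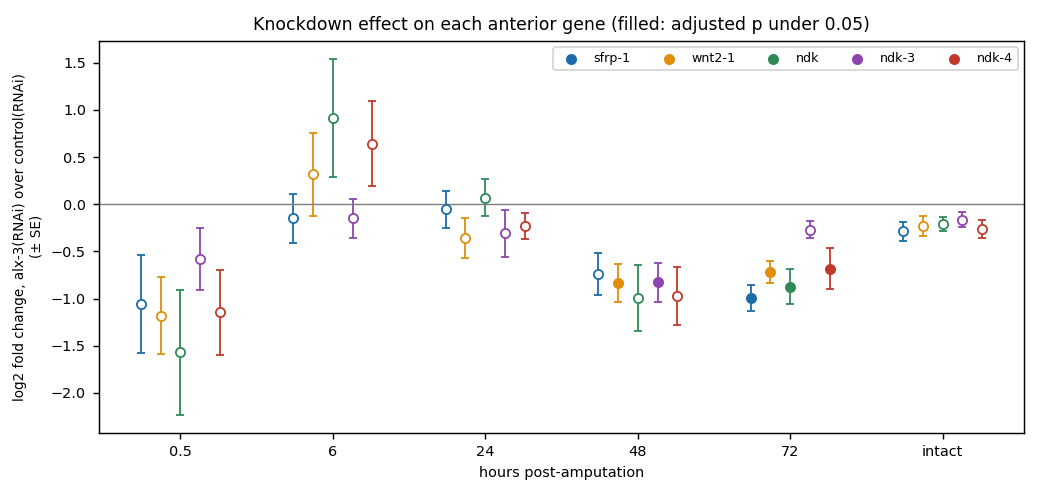
Points compare *alx-3(RNAi)* with *control(RNAi)* libraries as the difference in means on the log2(normalized count + 1) scale for each gene and time, with bars of 1 standard error from limma and 3 libraries in each group. Filled points have an adjusted p below 0.05. All 5 values are below 0 at 48 and 72 HPA and in intact animals, and *ndk* reads −1.57 at 0.5 HPA and 0.92 at 6 HPA, with its widest bars.

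None of the 5 genes was called at 0.5, 6 or 24 HPA, where 0.794%, 0.621% and 3.01% of tested transcripts were called lower. At 0.5 HPA all 5 log2 fold changes were negative, from −0.58 for *ndk-3* to −1.57 for *ndk*, with unadjusted p under 0.05 for *wnt2-1*, *ndk* and *ndk-4* (adjusted p = 0.167, 0.258 and 0.226). *ndk* had 132, 886 and 1332 normalized counts in controls, against 109, 396 and 136 in *alx-3(RNAi)* tails, so the groups overlapped through control replicate 1. Without that library 4 genes were called, all but *ndk-3*, with log2 fold changes of −1.77 to −2.58 (adjusted p = 0.00540 to 0.0228). In that fit 1260 of 31850 tested transcripts were called lower, beside 264 of 33258 with all libraries. Without *alx-3(RNAi)* replicate 2, the highest of its group, *wnt2-1* alone was called (−1.56, adjusted p = 0.0394), where 320 of 32031 tested transcripts were called lower.

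At 6 HPA the direction was mixed, and no gene had an unadjusted p under 0.05 at 6 or 24 HPA. *ndk* had 125, 603 and 152 normalized counts in controls, against 137, 762 and 747 in *alx-3(RNAi)* tails (log2 fold change 0.92, SE 0.627, adjusted p = 0.496), with libraries of both groups near the top and near the bottom of the range. *ndk-4* read 0.64, *wnt2-1* 0.32, and *sfrp-1* and *ndk-3* −0.15 each. At 24 HPA the replicates were closer, and the values ran from −0.36 for *wnt2-1* to 0.07 for *ndk*, which read −0.014 with equal totals (SE 0.138 to 0.247, adjusted p = 0.392 to 0.920). *sfrp-1*, at 101, 137 and 134 in controls, against 157, 111 and 94.8 in *alx-3(RNAi)* tails, read −0.06.

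In intact animals none of the 5 was called, where 0.501% of 32541 transcripts were called lower. All 5 were lower by a small amount, from −0.16 for *ndk-3* to −0.29 for *sfrp-1* (adjusted p = 0.193 to 0.301), with an unadjusted p under 0.05 for 4 of them. *ndk* had 2886, 3125 and 3050 normalized counts in controls, against 2652, 2683 and 2485 in *alx-3(RNAi)* animals. The 3 *alx-3(RNAi)* libraries were below all controls for every gene except *wnt2-1*, as for 9.31% of tested transcripts. Without *alx-3(RNAi)* replicate 2, the library that stood apart, 4 genes were called lower, all but *ndk-3*, at −0.23 to −0.37 (adjusted p = 0.00521 to 0.0365), and all transcripts called went from 125 higher and 163 lower to 2517 and 2905.

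Whether the effect at 72 HPA differed from that at another time was tested with a limma interaction for each gene against each of the other 5 times. None of the 25 differences was called, and 9 had an unadjusted p under 0.05. Of these, only that of *ndk-3* against 48 HPA was positive, a smaller fall at 72 HPA (0.56, unadjusted p = 0.0477, limma). The share of all transcripts with an unadjusted p under 0.05 was not counted. The call rates for a more negative effect at 72 HPA among all transcripts were 0.0647% against 0.5 HPA, 0.058% against 6 HPA, 0.0434% against 24 HPA, 0.00643% against 48 HPA and 0.0361% against intact animals. The smallest adjusted p belonged to *sfrp-1* against 24 HPA (log2 difference −0.94, SE 0.262, adjusted p = 0.121) and against intact animals (−0.71, SE 0.193, adjusted p = 0.143). For *ndk* the differences were −0.94 against 24 HPA (adjusted p = 0.198) and −1.79 against 6 HPA (adjusted p = 0.590). The effect at 72 HPA is therefore not shown to differ from that at earlier times or in intact animals.

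The 5 genes moved together from library to library. Over the 36 libraries, Pearson's r of log2(CPM + 0.1) was 0.84 to 0.98 among the 10 pairs, highest for *ndk* and *ndk-4*. Taken as deviations from the group means, so that time and RNAi are removed, it was still 0.74 to 0.96. The libraries share their fragments, depth and preparation in each such pair, so these values describe the libraries and carry no test. In 0.5 HPA control replicate 1 all 5 genes were below their group means, by a median of −1.28 (log2), and in control replicate 3 all 5 were above, by 1.05.

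Posterior genes were compared in the same libraries. In 0.5 HPA control replicate 1, 7 of 9 posterior genes were above their group means (median 0.19), as were 5 of 5 epidermal progeny markers (median 0.14). In 72 HPA control replicate 1, where all 5 anterior genes were low (median −0.31), all 9 posterior genes were high (median 0.29). In 48 HPA control replicate 3, where all 5 anterior genes were high (median 0.48), 5 of 9 posterior genes were above the mean (median 0.001). There *wnt11-1* deviated by −0.40 and *wnt11-6* by 0.22. In 6 HPA control replicate 2 all 5 anterior genes were high (median 1.00), and so were 7 of 9 posterior genes (median 0.046). In 6 HPA *alx-3(RNAi)* replicate 2, 4 of 5 anterior genes (median 0.58) and 7 of 9 posterior genes (median 0.13) were high. Over all 36 libraries the 2 medians had opposite signs in 24 (r = −0.37). Among the 9, *wnt11-6*, goes against the label, at 12.4 ± 2.79 CPM in intact controls and 8.29 ± 1.52 in 0.5 HPA control tails. Without it the counts were 7 of 8, 8 of 8, 4 of 8, 6 of 8 and 6 of 8 in the libraries above, in that order. Opposite signs were then found in 25 libraries (r = −0.45). Where along the tail each fragment was cut was not among the labels, and its part in these spreads was not tested.

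**Figure D4:**
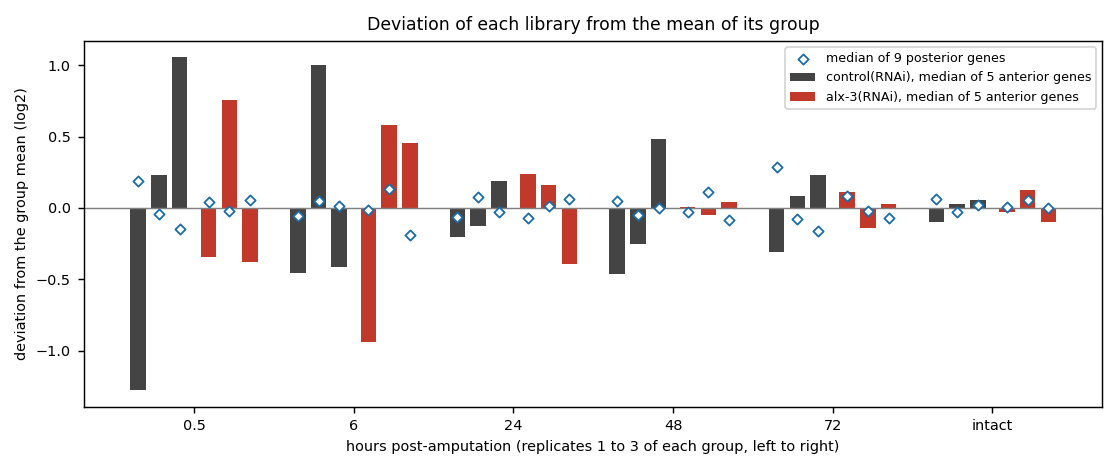
Bars give, for each library, the median over the 5 anterior genes of the deviation from the mean of its own group (log2), with replicates 1 to 3 of each group from left to right, and diamonds give the median over 9 posterior genes. The bars span −1.28 to 1.05 in the 0.5 HPA controls and run from −0.10 to 0.12 in intact animals.

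Other genes of the anterior-posterior axis gave a mixed picture at 72 HPA. Of 5 other anterior genes named in the IDs, 2 fell and none rose, beside 2.62% of all tested transcripts called lower. The Wnt inhibitor gene *notum* was at 3.46 to 7.98 CPM in controls and 1.66 to 2.04 in *alx-3(RNAi)* tails (log2 fold change −1.36, adjusted p = 0.000846). *sfrp2*, a further Frizzled-related gene, fell less (−0.33, adjusted p = 0.0159). *FoxD1*, *follistatin* and *sfrp3* were not called. By the means, intact controls and 0.5 HPA control tails were at 16.5 and 18.4 CPM for *follistatin* and at 3.78 and 3.67 for *FoxD1*. The other means were higher in intact controls, at 29.2 and 24.2 for *sfrp3*, 26.4 and 14.5 for *sfrp2* and 2.04 and 1.66 for *notum*. *notum* fell at 24 HPA too (−0.98, adjusted p = 0.00132), where 3.01% of tested transcripts were called lower and at a time when none of the 5 anterior genes was called, and neither *notum* nor *sfrp2* was called at 48 HPA or in intact animals.

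Of the 9 posterior genes, 5 rose at 72 HPA and none fell, where 10.5% of tested transcripts were called higher. The Wnt ligand gene *wntP-2* was at 16.9 to 25.4 CPM in controls and 31.9 to 38.1 in *alx-3(RNAi)* tails, and the Frizzled gene *Fzd-d* at 16.7 to 22.8 and 28.6 to 31.6. *sp5*, a transcription factor gene induced by Wnt/β-catenin signaling, was at 13.1 to 19.5 and 22.5 to 28.3. The other 2 were *teashirt* and *wnt11-1*, and all 5 stayed higher with equal totals. At 48 HPA *Fzd-d*, *wnt11-1* and *sp5* rose, with none lower, where 2.36% of tested transcripts were called higher. At 24 HPA, by contrast, *wnt1* (−0.78) and *wntP-3* (−0.66) fell and none rose, where 3.01% of tested transcripts were called lower. Per the study, *wnt1* lies at the posterior pole of uninjured animals but comes on after a cut at wounds of either facing. No posterior gene was called at 0.5 or 6 HPA. The list of Wnt transduction genes had 1 named gene, *APC*, which was not called at any time, and the list of FGF receptor genes had none in the IDs. *fgfrl-b*, an FGF receptor-like gene chosen after the IDs were seen, rose at 72 HPA only slightly (0.25, adjusted p = 0.0208), and its difference was 0.042 on the CPM scale.

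Markers of other cells were read beside these changes. The muscle gene *titin*, the only muscle marker named, was at 6.48 to 11.4 CPM in 72 HPA controls and at 2.58 to 3.49 in *alx-3(RNAi)* tails (log2 fold change −1.18, adjusted p = 0.000516). It also fell at 0.5, 6 and 24 HPA (−1.15, −1.52 and −1.37), where none of the 5 anterior genes was called, and was not called at 48 HPA (−0.81, adjusted p = 0.133). In intact controls it stood at 0.563 to 1.33 CPM, below every control tail, whereas the anterior genes were highest there. By staining of *alx-3(RNAi)* tails at 72 HPA, the study saw no significant change in the share of *collagen*-positive muscle cells. Of the 8 neoblast (stem cell) markers 1 rose and 1 fell at 72 HPA, and their summed level was 4132 to 4361 CPM in controls and 3341 to 3619 in *alx-3(RNAi)* tails. Of the 5 epidermal progeny markers all rose, with sums of 839 to 867 and 952 to 977 CPM, where 10.5% of all tested transcripts were called higher. The gut gene *NXK2.2* (0.26) and the parenchymal gene *FoxF1* (0.36) were called higher as well. On the CPM scale these rises shrank, to 0.046 for *prog-1*, 0.079 for *AGAT3*, 0.11 for *AGAT1*, 0.24 for *prog-2*, 0.38 for *vim-1*, 0.048 for *NXK2.2* and 0.15 for *FoxF1*. Of the head and brain markers, *COE* (−0.18, adjusted p = 0.136) and *ovo* (−1.08, adjusted p = 0.0894) were not called at 72 HPA. On the CPM scale they read −0.38 and −0.90. *COE* was called lower at 24 HPA (−0.33, adjusted p = 0.0188), where 3.01% of tested transcripts were. The part of cell composition in the fall of the anterior genes was not tested.

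Among 246 named transcripts tested at every time, those most like the 5 genes over the 36 libraries were few and shared. *msi-1* and *msi-2*, named for musashi RNA-binding proteins, *sfrp2*, the homeobox gene *meis* and *smad23*, named for a transducer of TGF-β/Activin signals, filled all 15 places (the 3 nearest to each gene). *sfrp2* was nearest to *ndk* (r = 0.90), *msi-1* to *ndk-4* (r = 0.91), *msi-2* to *sfrp-1* (r = 0.89), and *meis* to *wnt2-1* (r = 0.92) and *ndk-3* (r = 0.90). Since the 5 genes are themselves alike, shared neighbours are no separate result. With group means removed, *smad23* had r = 0.44 with *wnt2-1* and 0.42 with *ndk-3*. In the other places r was then 0.62 to 0.88. Of 27958 transcripts, 9 had an r over 0.9 with *sfrp-1*, 20 with *ndk-3*, 36 with *wnt2-1*, 36 with *ndk* and 69 with *ndk-4*.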

How the data were processed

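RNA was extracted with Trizol, libraries were made with poly(A) selection and read as 50 bp pairs. Per the labels and the methods of the study, the authors used Trimmomatic 0.39 to trim reads, Salmon 1.4.0 to assign them to a *S. mediterranea* transcriptome and DESeq2 1.30.1 to scale the counts. The authors deposited a signal for each transcript, its normalized count, in 1 table for each time. The headers say RPKM. Averaged over libraries, however, the values equal the base means that DESeq2 gave the authors, so they were read as counts scaled for library size and not for transcript length. Levels of different genes were not compared. The fold changes and p-values of the authors, which compare *alx-3(RNAi)* with *control(RNAi)* at each time, were not used. Whole reads could not be recovered, so no count model was fitted.

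Transcripts that reached 10 normalized counts in 3 or more of the 6 libraries of a time were tested on log2(normalized count + 1) with limma 3.58.1 in R 4.3.3 (lmFit, eBayes with a trend, two-sided), and p-values were adjusted over all tested transcripts by Benjamini-Hochberg. Fold changes on this scale understate those of low transcripts. A two-sided exact permutation test of 3 against 3 libraries cannot go below p = 0.1. Interactions used the 12 libraries of 2 times. Levels across times are normalized counts rescaled to the same total in each library (CPM). The scripts were tested on simulated counts, drawn independently for each transcript and library. These lacked the shared library deviations and wide replicate ranges of the 5 members, so they do not show how calls behave for such genes. The members, lists, named genes (the 5 members, *alx-3*, called list members, at most 6 for each list, and the 3 named transcripts nearest to each member) and alternatives were chosen with earlier results of these data known. Replicate numbers were not taken to pair libraries, since same-numbered libraries deviated together (correlation over 0.1) in 2 of 18 cases. Both were at 0.5 HPA (0.157 and 0.122), and a cut of 0.1 cannot settle whether the numbers pair libraries. The other settings tried were pseudocounts of 0.5 and 5, testing without a filter or above a mean of 50, equal totals, quantile normalization, all 36 libraries in 1 fit, a replicate block, a minimum log2 fold change of 1 in size, leaving out each library, and, for levels, the deposited scale and leaving out ribosomal RNA. Those for the ratio of 72 to 24 HPA and the posterior genes without *wnt11-6* were added after seeing the data. No sequences were used here.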

Additional observations from a re-analysis of the deposited data

How the results depend on the processing

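The number of anterior genes called depended on single libraries and on the form of the fit. Leaving out 1 library gave 0 to 4 calls at 0.5 HPA, 0 to 5 at 48 HPA, 3 to 4 at 72 HPA and 0 to 4 in intact animals, and 0 throughout at 6 and 24 HPA. With all 36 libraries in 1 fit the 2 calls at 48 HPA and the 4 at 72 HPA became 0. Of all transcripts, that fit called 709 of 32366 and 627 of 33399 lower at these times. An added limit of 1 on the absolute log2 fold change also left 0 at both times. A replicate block gave 4 calls at 0.5 HPA and 5 at 48 HPA, and changed no other count, with 4 at 72 HPA and 0 interactions. With the block, lower calls among all transcripts rose too. They went from 264 to 595 of 33258 at 0.5 HPA and from 358 to 634 of 32366 at 48 HPA. Whether the numbers pair the libraries is not known, so these are counts of another model and not of a stronger effect. Pseudocounts, filters, equal totals and quantile normalization left the counts within 1.5 times. Signs turned for values near 0 that were not called. *ndk* at 24 HPA read −0.014 with equal totals. Over the fits that left out 1 library, at 6 HPA *sfrp-1* ran from −0.43 to 0.21, *wnt2-1* from −0.053 to 0.87 and *ndk-3* from −0.37 to 0.079, and at 24 HPA *sfrp-1* ran from −0.26 to 0.10, *ndk* from −0.090 to 0.29 and *ndk-3* from −0.53 to 0.048. In controls, the median log2 ratio of intact animals to 0.5 HPA ran from 1.27 to 2.31 over left-out libraries and that of 72 to 0.5 HPA from 0.42 to 1.07. Without 0.5 HPA control replicate 1 the 72 to 0.5 HPA ratio turned to −0.082 for *ndk* and −0.028 for *ndk-4*, at the low end of ranges that reached 1.02 and 1.03. The causes were not tested. Replicate ranges of up to 9.24-fold limited what 3 libraries a group could show at 0.5 HPA.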
